A study of Mus musculus with 9 samples.

Results

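p53, encoded by *Trp53*, and 8 genes that it is known to activate were followed in 9 RNA-seq libraries of mouse embryoid bodies (EBs), which are clusters of embryonic stem cells grown in suspension to start their differentiation. The 9 genes were chosen by name from the p53 pathway, with earlier results of these data known, and are *Trp53*, *Mdm2*, *Cdkn1a*, *Ccng1*, *Bax*, *Bbc3*, *Zmat3*, *Trp53inp1* and *Phlda3*. All 9 were among the 55471 gene IDs of the count table, and all 9 passed the filter on low counts in every comparison. The study compared 3 groups of 3 libraries, all from the E14 mouse embryonic stem cell line. The EBs were kept for 3 days in hanging drops. By the study's methods they were then plated on dishes coated with gelatin for 3 days of in vitro differentiation, so they were no longer in suspension. The groups were wild-type EBs (WT), EBs of *Tnfaip2*-/- cells (KO), and *Tnfaip2*-/- EBs supplemented with palmitic acid and palmitoyl-L-carnitine at 8 μM each (KO_PAPC). *Tnfaip2*, a target gene of TNFα and NFκB signaling, had been disrupted by CRISPR with a frameshift and early stop codon in a single clone, which was set against the parental line, so that loss of the gene and clonal difference cannot be told apart. WT EBs with the 2 lipids were not analysed here, so the lipids were compared only within the *Tnfaip2*-/- background. The study describes the untreated KO EBs as given a vehicle, and states none for the WT EBs of the RNA-seq. If the WT EBs had no vehicle, vehicle and genotype cannot be told apart in KO versus WT. The study's methods add the lipids already while the EBs formed and name MEF medium for that step, where the standard protocol names ES cell medium. The labels mention only EBs supplemented with the lipids. If those methods hold for these libraries, lipids and medium cannot be told apart in KO_PAPC versus KO.

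p53 is a transcription factor that is held at a low level because its own target Mdm2, a ubiquitin ligase, marks it for degradation. DNA damage and other stresses release p53 from Mdm2, and p53 then activates genes of cell cycle arrest, apoptosis, DNA repair and metabolism. Embryonic stem cells are known to hold abundant p53, to express many of its targets without added damage, and to reach apoptosis or differentiation more readily than a lasting arrest. Because p53 is controlled mainly as a protein, the level of *Trp53* mRNA does not give its activity, and p53 protein was not measured here.

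To look for matches to the DNA letters that p53 is known to bind, the bases before the start sites of 5 of the genes are printed. They come from the RefSeq promoter table of build GRCm38.p6. Sites elsewhere in the genes were not searched, so a match here need not be the site through which p53 acts on that gene. The promoter table held 10 windows, each from 250 bases before to 50 bases after a start, for 7 of the 9 genes, and *Zmat3* and *Trp53inp1* had no entry. Capitals mark exact matches to the p53 half-site, the 10-base consensus that p53 binds in pairs, and also 20-base stretches made of 2 adjacent half-sites with at most 1 mismatch. *Cdkn1a* and *Ccng1* are shown because they hold the adjacent pair, *Mdm2* as the feedback gene, and *Trp53* and *Bax* as the 2 genes that were not lower in KO_PAPC than in WT. Bases inside the annotated gene were left out. The stretches are chr17:29090729-29090975 on the plus strand (*Cdkn1a*, the first of 2 windows), chr11:40755312-40755536 on the minus strand (*Ccng1*), chr10:117710759-117711008 on the minus strand (*Mdm2*), chr11:69580109-69580358 on the plus strand (*Trp53*) and chr7:45466899-45467148 on the minus strand (*Bax*), each written 5′ to 3′ along its gene.
Cdkn1a: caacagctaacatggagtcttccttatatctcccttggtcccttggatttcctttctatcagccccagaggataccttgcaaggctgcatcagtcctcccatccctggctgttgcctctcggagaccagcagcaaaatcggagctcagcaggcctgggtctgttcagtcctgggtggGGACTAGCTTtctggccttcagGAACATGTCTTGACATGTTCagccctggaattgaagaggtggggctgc
Ccng1: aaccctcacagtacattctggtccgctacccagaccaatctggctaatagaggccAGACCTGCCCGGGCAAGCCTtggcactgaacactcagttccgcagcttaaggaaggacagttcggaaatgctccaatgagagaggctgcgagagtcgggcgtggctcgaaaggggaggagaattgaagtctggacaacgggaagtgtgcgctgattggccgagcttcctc
Mdm2: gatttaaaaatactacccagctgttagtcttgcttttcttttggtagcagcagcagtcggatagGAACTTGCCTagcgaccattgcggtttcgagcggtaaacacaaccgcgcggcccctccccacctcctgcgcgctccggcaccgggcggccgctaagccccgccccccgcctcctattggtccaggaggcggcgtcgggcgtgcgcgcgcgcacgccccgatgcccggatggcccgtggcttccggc
Trp53: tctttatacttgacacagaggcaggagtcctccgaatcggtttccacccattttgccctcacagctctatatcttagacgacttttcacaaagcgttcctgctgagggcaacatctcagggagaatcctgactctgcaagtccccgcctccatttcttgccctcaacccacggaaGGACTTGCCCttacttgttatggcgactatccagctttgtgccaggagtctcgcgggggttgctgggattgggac
Bax: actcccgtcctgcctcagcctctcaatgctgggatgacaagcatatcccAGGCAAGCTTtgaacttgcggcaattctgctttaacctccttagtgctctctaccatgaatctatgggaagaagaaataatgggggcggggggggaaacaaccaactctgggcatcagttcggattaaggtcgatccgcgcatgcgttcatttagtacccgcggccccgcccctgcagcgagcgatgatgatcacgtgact

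An exact half-site was found, on either strand, in 5 of the 10 windows, each of a different gene, against 8.36% of all 32851 windows in the table. The genes were chosen from the p53 pathway, so the choice itself favours half-sites and the contrast is no test of enrichment. Some windows of *Bbc3* also overlap each other, so the windows are not all independent. Adjacent pairs were searched for after these half-sites had been seen. The adjacent pair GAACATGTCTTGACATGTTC of *Cdkn1a* starts 51 bases before the first annotated start and 2841 bases before the second. It holds the tetramer CATG, the core of a strong p53 half-site, in both of its half-sites, and CATG alone is common, in 61.1% of all windows. The pair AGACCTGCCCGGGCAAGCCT of *Ccng1* starts 195 bases before its start. Such a pair was found in 29 of the 32851 windows, which is 0.0883%. *Mdm2*, *Trp53* and *Bax* each had a single half-site, GAACTTGCCT, GGACTTGCCC and AGGCAAGCTT, at positions -186, -75 and -201, counted from the start. The windows of *Bbc3* and *Phlda3* held no half-site, which says only that these letters are not within these windows. The GC box GGGCGG, present in 35.7% of all windows, occurred in those of *Mdm2*, *Cdkn1a*, *Bax*, *Bbc3* and *Phlda3*. These matches are a description of the sequence, and binding of p53 was not measured.

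Levels are given as TMM-scaled CPM, that is, counts relative to the library total times edgeR's TMM factor, a correction that sets the bulk of genes level between libraries, as mean ± SD over 3 libraries. Differences are log2 fold changes ± SE from edgeR's quasi-likelihood test, with p-values adjusted over all genes tested (Benjamini-Hochberg) and a call at an adjusted p under 0.05. Total counts ran from 27362913 to 28914312 per library, and the lowest count of any of the 9 genes in a library was 864, so that counting error was small beside the differences described. The study describes its RNA-seq samples as biological replicates, and those of KO and KO_PAPC as independent pools of EBs, all KO and KO_PAPC pools being of the same clone. The p-values measure the spread between such samples, which was narrow: edgeR's biological coefficient of variation came to 2.09%, 2.32% and 2.65% in the 3 comparisons. As a result very many genes were called: 73.8% of the 17355 tested in KO versus WT (36.8% higher and 37.1% lower), 81.8% of the 17167 tested in KO_PAPC versus KO (39.6% higher and 42.2% lower), and 70.6% of the 16655 tested in KO_PAPC versus WT (34.2% higher and 36.4% lower). A call by itself therefore says little, and the sizes carry the description. The scale matters for KO_PAPC, whose TMM factors were 0.921 to 0.926 against 1.04 in WT and KO. When library totals set the scale instead, the centre of all genes shifted by -0.167 (log2) for KO_PAPC against KO and by -0.165 for KO_PAPC against WT. The split of calls then moved from 6801 higher and 7246 lower to 5317 higher and 8684 lower for KO_PAPC against KO, and from 5693 higher and 6067 lower to 3616 higher and 8341 lower in KO_PAPC versus WT. KO_PAPC libraries also held counts for fewer genes (24411 to 24490, against 26175 to 27437 in WT and KO). Their share of counts in mitochondrial genome genes was lower (1.26% to 1.34%, against 1.85% to 1.98%). The study describes WT against KO and KO_PAPC against KO as separate transcriptome analyses. If the groups were prepared or sequenced apart, that difference and the lipids cannot be told apart in KO_PAPC. *Tnfaip2* itself was near the detection floor, with 6 to 16 counts in WT, 5 to 8 in KO and 14 to 25 in KO_PAPC libraries, and gave no check of the labels. It was too low to be tested in KO versus WT. In KO_PAPC it was called higher than in KO (log2 fold change 1.72 ± 0.363, edgeR adjusted p = 5.49e-05) and than in WT (log2 fold change 0.951 ± 0.343, edgeR adjusted p = 0.0164). At these counts the sizes are uncertain, and on library totals KO_PAPC and WT overlapped.

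The 9 genes followed 2 patterns over the groups. *Trp53*, *Mdm2*, *Zmat3*, *Trp53inp1* and, by a small margin, *Bax* had their highest mean in KO, while *Cdkn1a*, *Ccng1*, *Bbc3* and *Phlda3* had theirs in WT and stepped down in KO and again in KO_PAPC. In KO_PAPC, 7 of the 9 lay below both other groups, and the exceptions were *Trp53* and *Bax*. Over all genes tested, 42.2% were called lower in KO_PAPC than in KO and 36.4% lower than in WT. These 2 contrasts have the KO_PAPC libraries in common, so the share of all genes below both groups cannot be read from them. That share was not counted, so whether 7 of 9 is unusual cannot be said, and it is given as a description. On library totals *Trp53* and *Bax* were lower in KO_PAPC than in either other group as well. The plot of levels by library shows both patterns.

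**Figure D1:**
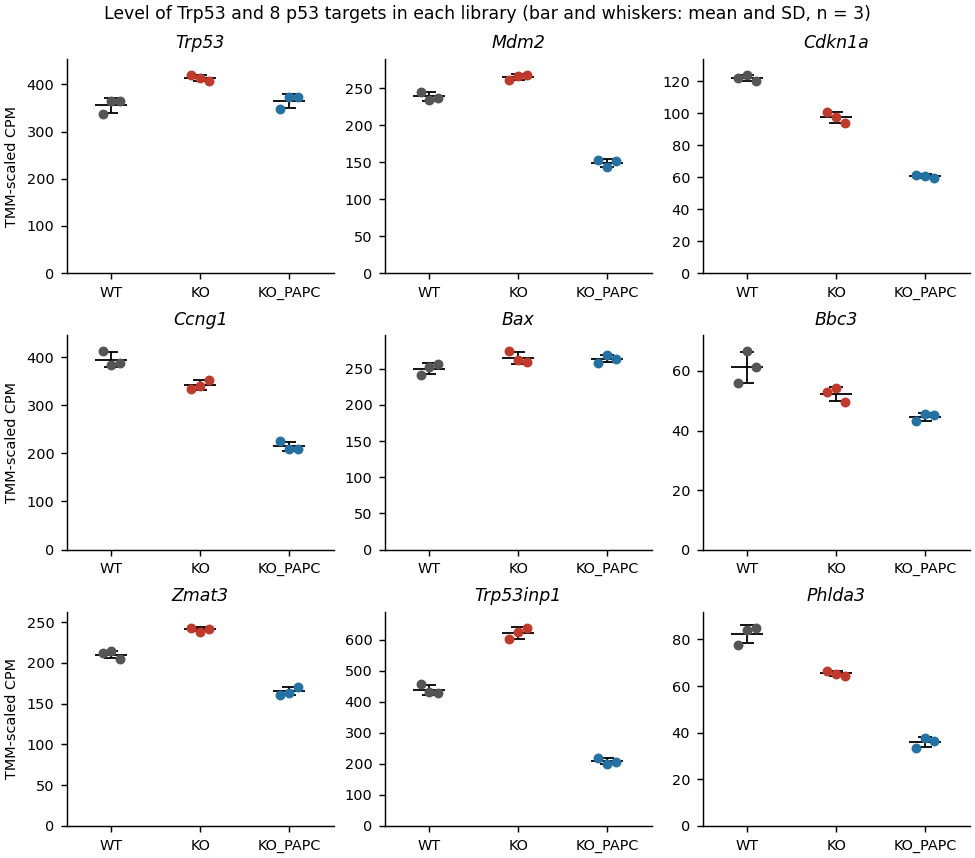
TMM-scaled CPM (vertical axes, from 0) of each of the 9 genes in the 9 libraries, grouped as WT, KO and KO_PAPC; points are libraries, and the horizontal bar with whiskers is the mean ± SD (n = 3). *Trp53inp1* rises to a mean of 621 in KO and drops to 208 in KO_PAPC, *Cdkn1a* steps down from 122 to 97.4 and 60.6, and *Bax* stays between 241 and 274 in all libraries.

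*Trp53* (ENSMUSG00000059552, chr11:69580359-69591873, plus strand) gave 338, 365 and 365 CPM in the WT libraries, 420, 413 and 407 in KO, and 348, 373 and 374 in KO_PAPC. KO lay above both other groups without overlap, while WT and KO_PAPC overlapped. The mRNA was 16.0% higher in KO than in WT (log2 fold change 0.21 ± 0.0253, edgeR adjusted p = 3.18e-09). In KO_PAPC it fell by 12% relative to KO (log2 fold change -0.18 ± 0.0269, edgeR adjusted p = 1.18e-07). KO_PAPC and WT differed by 0.03 ± 0.0321 on the log2 scale, which was not called (edgeR adjusted p = 0.438). On library totals this last difference was -0.14 (edgeR adjusted p = 0.000567). Of the 51-base words of *Trp53* exons, 3.76% occur in other genes, mainly its pseudogene *Trp53-ps*, and reads from these places were not counted where they mapped to both.

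*Mdm2* (ENSMUSG00000020184, chr10:117688875-117710758, minus strand), the target that feeds back on p53, was read at 245, 234 and 237 CPM in WT, 261, 266 and 268 in KO, and 153, 143 and 151 in KO_PAPC. The 3 groups did not overlap, and KO_PAPC stood far below the others. The rise in KO was 10.9% (log2 fold change 0.15 ± 0.0245, edgeR adjusted p = 2.00e-06). In KO_PAPC the level was 1.78-fold lower than in KO (log2 fold change -0.83 ± 0.0289, edgeR adjusted p = 7.08e-25) and 1.61-fold lower than in WT (log2 fold change -0.69 ± 0.0325, edgeR adjusted p = 1.48e-15). *Mdm2* mRNA was thus lowest in the group where *Trp53* mRNA was at the WT level on this scale.

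*Cdkn1a* (ENSMUSG00000023067, chr17:29090976-29100727, plus strand) encodes p21, the inhibitor of cyclin-dependent kinases through which p53 arrests the cell cycle. Its levels were 122, 124 and 120 CPM in WT, 101, 97.8 and 94.0 in KO, and 61.7, 60.8 and 59.4 in KO_PAPC. Each group lay below the one before it without overlap. *Cdkn1a* fell by 20.1% from WT to KO (log2 fold change -0.33 ± 0.0301, edgeR adjusted p = 1.26e-11). It was 1.61-fold lower in KO_PAPC than in KO (log2 fold change -0.69 ± 0.0356, edgeR adjusted p = 1.74e-19) and 2.02-fold lower than in WT (log2 fold change -1.01 ± 0.0348, edgeR adjusted p = 2.54e-18). An antisense gene, AC167363.2, covers 7.68% of its exon length. As the reads were unstranded, those shared by the 2 genes were left out of the counts.

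*Ccng1* (ENSMUSG00000020326, chr11:40748552-40755311, minus strand), which encodes cyclin G1, a partner of protein phosphatase 2A that acts on Mdm2, took the same order. The WT libraries held 412, 384 and 388 CPM, the KO libraries 334, 339 and 353, and the KO_PAPC libraries 226, 210 and 209. The highest KO library was below the lowest WT library, and all KO_PAPC libraries were below both. *Ccng1* gave log2 fold changes of -0.21 ± 0.0256 between KO and WT (edgeR adjusted p = 7.20e-09), -0.67 ± 0.0294 in KO_PAPC versus KO (edgeR adjusted p = 9.68e-22) and -0.89 ± 0.0341 in KO_PAPC versus WT (edgeR adjusted p = 2.63e-17). The 2 genes with the adjacent half-sites, *Cdkn1a* and *Ccng1*, thus both had WT as their highest group, as did *Bbc3* and *Phlda3*, whose windows hold no half-site.

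*Bax* (ENSMUSG00000003873, chr7:45461697-45466898, minus strand), the pore-forming effector of mitochondrial apoptosis, was the steadiest of the 9. It was found at 241, 253 and 257 CPM in WT, 274, 262 and 259 in KO, and 258, 269 and 264 in KO_PAPC. All 9 values fell within this narrow band, and KO and KO_PAPC overlapped. The mean in KO was 5.66% above that in WT (log2 fold change 0.08 ± 0.0263, edgeR adjusted p = 0.00755), a call that was lost without KO replicate 1 (edgeR adjusted p = 0.0902) or without WT replicate 1 (edgeR adjusted p = 0.0552). KO_PAPC and KO differed by -0.01 ± 0.0275 on the log2 scale, which was not called (edgeR adjusted p = 0.716). KO_PAPC was 4.69% above WT at the edge of the threshold (log2 fold change 0.07 ± 0.0295, edgeR adjusted p = 0.0489). On library totals *Bax* was lower in KO_PAPC than in KO (log2 fold change -0.18, edgeR adjusted p = 3.52e-07) and than in WT (log2 fold change -0.10, edgeR adjusted p = 0.0046), so that no direction for *Bax* in KO_PAPC holds on both scales. A same-strand gene, *Gm45808*, covers 12.2% of its exon length.

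*Bbc3* (ENSMUSG00000002083, chr7:16308393-16318205, plus strand) encodes Puma, a BH3-only protein that leads to activation of Bax. Its 3 WT libraries gave 56.1, 66.6 and 61.3 CPM, the KO libraries 52.8, 54.4 and 49.6, and the KO_PAPC libraries 43.1, 45.5 and 45.3. The groups did not overlap, although the WT libraries were spread more widely than for any other of the 9 genes (coefficient of variation 8.52%). *Bbc3* fell by 14.9% from WT to KO (log2 fold change -0.23 ± 0.0446, edgeR adjusted p = 2.03e-05) and by 14.7% from KO to KO_PAPC (log2 fold change -0.23 ± 0.0422, edgeR adjusted p = 6.90e-06). Against WT, the level in KO_PAPC was 1.38-fold lower (log2 fold change -0.47 ± 0.0490, edgeR adjusted p = 6.34e-09). *Bbc3* thus stepped down where *Bax* was nearly level.

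*Zmat3* (ENSMUSG00000027663, chr3:32334792-32366014, minus strand), an RNA-binding zinc finger protein that acts on splicing and mRNA stability, was present at 212, 214 and 205 CPM in WT, 243, 238 and 242 in KO, and 161, 163 and 170 in KO_PAPC. KO stood highest and KO_PAPC lowest, with no overlap. *Zmat3* was 14.4% higher in KO than in WT (log2 fold change 0.19 ± 0.0245, edgeR adjusted p = 1.33e-08). It was 1.47-fold lower in KO_PAPC than in KO (log2 fold change -0.55 ± 0.0280, edgeR adjusted p = 9.04e-20) and 1.28-fold lower than in WT (log2 fold change -0.36 ± 0.0309, edgeR adjusted p = 1.58e-10).

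*Trp53inp1* (ENSMUSG00000028211, chr4:11156431-11174379, plus strand), a stress protein that acts with p53 in apoptosis and in autophagy, moved most of the 9 in both contrasts with KO. It stood at 456, 430 and 428 CPM in WT, 602, 623 and 638 in KO, and 218, 199 and 205 in KO_PAPC. The rise in KO and the drop in KO_PAPC each set the groups wide apart. In KO it was 1.41-fold higher than in WT (log2 fold change 0.50 ± 0.0245, edgeR adjusted p = 6.21e-19). In KO_PAPC it was 3.00-fold lower than in KO (log2 fold change -1.58 ± 0.0294, edgeR adjusted p = 2.17e-33) and 2.12-fold lower than in WT (log2 fold change -1.08 ± 0.0342, edgeR adjusted p = 4.48e-19).

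*Phlda3* (ENSMUSG00000041801, chr1:135766119-135769136, plus strand), whose PH-domain protein keeps the kinase Akt off the membrane, showed the lowest level in KO_PAPC relative to WT. The WT libraries gave 77.7, 83.9 and 85.0 CPM, the KO libraries 66.5, 65.3 and 64.3, and the KO_PAPC libraries 33.6, 37.8 and 36.4. Each step from WT to KO to KO_PAPC was without overlap. The level fell by 20.5% from WT to KO (log2 fold change -0.33 ± 0.0350, edgeR adjusted p = 2.62e-10). In KO_PAPC it was 1.82-fold lower than in KO (log2 fold change -0.87 ± 0.0423, edgeR adjusted p = 2.80e-20) and 2.30-fold lower than in WT (log2 fold change -1.20 ± 0.0453, edgeR adjusted p = 1.75e-17).

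Counted together, in KO versus WT 5 of the 9 genes were called higher and 4 lower (73.8% of all tested genes were called), with a median log2 fold change of 0.08 against -0.01 for all genes. The differences were small for these data, as the median absolute log2 fold change was 0.21 over the 9 genes and 0.36 over all genes, and with a tested minimum fold change of 1.5 none of the 9 was called (0, against 21.0% of all genes). In KO_PAPC versus KO, none was called higher and 8 were called lower (88.9% called, against 81.8% of all genes, with 39.6% higher and 42.2% lower), with a median of -0.67 against -0.02 for all genes. With the minimum fold change 5 of the 9 were called, against 37.8% of all genes. In KO_PAPC versus WT, 1 was called higher and 7 lower (88.9% called, against 70.6% of all genes, with 34.2% higher and 36.4% lower), with a median of -0.69 against -0.02, and 5 were called with the minimum fold change, against 17.7% of all genes. The share called was thus near that of all genes in KO_PAPC versus KO, and it was the direction that was uneven. On library totals all 9 were called lower in both contrasts with KO_PAPC, where 50.6% and 50.1% of all genes were called lower (81.6% and 71.8% called, 31.0% and 21.7% higher). KO libraries enter the first 2 contrasts, WT libraries the first and the third, and KO_PAPC libraries the second and the third. The contrasts are therefore not independent of each other, and the lower calls in both contrasts with KO_PAPC are not separate observations. Among all genes tested in KO_PAPC versus WT, *Phlda3* lay at percentile 9.07 of the log2 fold changes, *Trp53inp1* at 10.3 and *Cdkn1a* at 11.2.

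**Figure D2:**
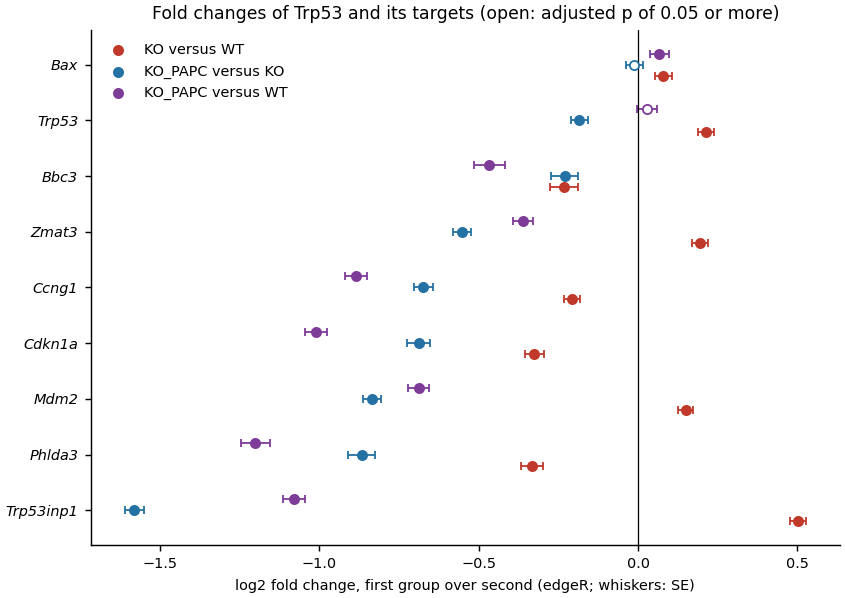
Log2 fold changes of the 9 genes (horizontal axis, edgeR, whiskers are SE) in KO versus WT (red), KO_PAPC versus KO (blue) and KO_PAPC versus WT (purple); open circles were not called at an adjusted p under 0.05. The blue values run from -0.01 for *Bax* to -1.58 for *Trp53inp1*, while the red values lie on both sides of 0.

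**Figure D3:**
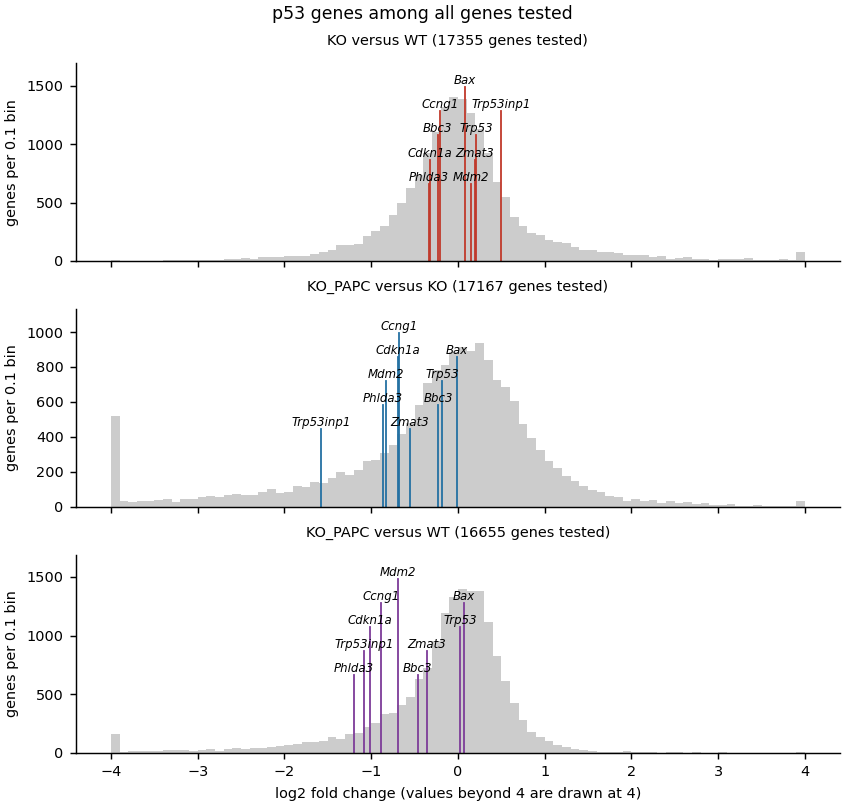
Histograms of the log2 fold changes of all tested genes (vertical axes, genes per bin) in the 3 contrasts, with vertical lines at the 9 named genes; line heights differ only to keep the names apart. In KO versus WT the 9 lie on both sides of the centre, and in both contrasts with KO_PAPC most lie to its left.

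Per exon length, as TPM (counts per exon length, scaled to the same sum in every library), *Bax* was the most abundant of the 9 genes in WT, with a mean of 583 TPM. It was followed by *Ccng1* (413), *Trp53* (323), *Trp53inp1* (248), *Phlda3* (193), *Mdm2* (172), *Cdkn1a* (126), *Bbc3* (106) and *Zmat3* (67.5). No neighbours in this order overlapped over the 3 WT libraries. *Trp53* passed *Ccng1* in KO, at 376 against 359 TPM, although their ranges came close (372 to 381 and 349 to 371). In KO_PAPC *Bax* (541 TPM) and *Trp53* (292 TPM) led, and *Zmat3* (46.6 TPM) was again lowest. There *Trp53inp1* held 104 TPM, from 353 TPM in KO.

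A list of 58 other genes of the pathway was then examined, of which 57 were tested and *Sco2* was too low. In KO versus WT 25 were called higher and 22 lower, which is 82.5% called against 73.8% of all genes (median log2 fold change 0.02, against -0.01). In KO_PAPC versus KO 15 were called higher and 33 lower, 84.2% called against 81.8% of all genes (median -0.22 against -0.02). In KO_PAPC versus WT 15 were called higher and 29 lower, 77.2% called against 70.6% of all genes (median -0.24 against -0.02). The shares called lay near those of all genes. With library totals the last 2 splits were 13 higher and 41 lower, where 31.0% of all genes were higher and 50.6% lower, and 10 higher and 40 lower, where 21.7% were higher and 50.1% lower. The counts by role are given without a test between roles, and over all genes KO_PAPC against WT gave 34.2% called higher and 36.4% called lower. Of 11 other apoptosis genes, none was called higher and 7 were called lower in KO_PAPC versus WT, and of 12 arrest and growth control genes 2 were called higher and 9 lower. Of 7 repair and nucleotide supply genes 1 was higher and 4 were lower, and of 8 tested metabolic targets 2 were higher and 5 lower. Of the 19 regulators of p53 protein 10 were higher and 4 lower (median log2 fold change 0.10), but 7 were higher and 9 lower in KO_PAPC versus KO (median -0.11). On library totals the regulators were split 8 higher and 8 lower in KO_PAPC versus WT (median -0.07), so that their direction does not hold on both scales. There the apoptosis genes were split 0 and 9, the arrest genes 0 and 11, the repair genes 1 and 6 and the metabolic targets 1 and 6.

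**Figure D4:**
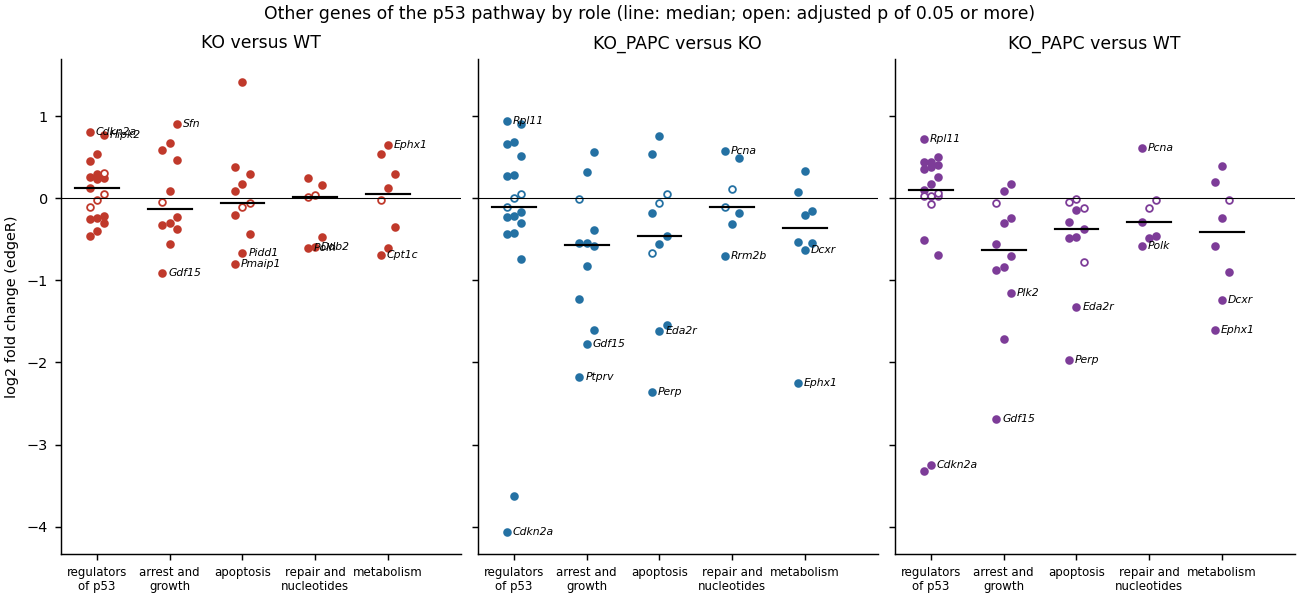
Log2 fold changes (vertical axis, edgeR) of the 57 tested pathway genes in 5 roles (horizontal axis) for the 3 contrasts; short lines are medians, open circles were not called, and the genes named by the rule are labelled. In KO_PAPC versus WT the medians of the 4 groups of targets lie between -0.63 and -0.29 and that of the regulators at 0.10, which is -0.07 on library totals.

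Among the apoptosis genes, *Perp*, a membrane protein of cell junctions, and *Eda2r*, a receptor of the TNF family, fell most in KO_PAPC. *Perp* was at 25.5, 23.3 and 24.7 CPM in WT, 31.5, 31.9 and 32.7 in KO, and 6.46, 6.41 and 5.97 in KO_PAPC. The groups lay well apart, and the log2 fold changes were -2.36 ± 0.0655 against KO (edgeR adjusted p = 7.25e-28) and -1.97 ± 0.0711 against WT (edgeR adjusted p = 7.08e-18). *Eda2r* went from a mean of 103 CPM in WT and 127 in KO to 41.5 in KO_PAPC, with log2 fold changes of -1.62 ± 0.0384 against KO and -1.32 ± 0.0391 against WT. In KO versus WT the named apoptosis genes were *Pmaip1*, which encodes the BH3-only protein Noxa, and *Pidd1*, a scaffold for caspase activation. *Pmaip1* had 59.6, 55.8 and 53.4 CPM in WT, 30.7, 32.6 and 33.9 in KO, and 57.6, 54.4 and 52.4 in KO_PAPC. It was lower in KO than in both other groups (log2 fold change -0.80 ± 0.0442 against WT, edgeR adjusted p = 1.81e-17), and its WT and KO_PAPC libraries overlapped. *Pidd1* had a like order, with means of 65.8, 41.3 and 60.0 CPM. Within apoptosis, then, *Bbc3* and *Pmaip1*, both BH3-only genes, were lower in KO than in WT and differed in KO_PAPC. There *Bbc3* was lower still, and *Pmaip1* was above KO and, on the TMM scale, back in the range of WT. On library totals *Pmaip1* in KO_PAPC (53.3, 50.3 and 48.2 CPM) lay below WT (62.1, 57.9 and 55.7 CPM) without overlap.

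Among the arrest and growth control genes, *Gdf15*, a secreted stress factor of the TGF-β family, took the same downward steps as *Cdkn1a*. It was measured at 21.0, 21.7 and 22.2 CPM in WT, 12.1, 11.1 and 11.2 in KO, and 3.19, 3.52 and 3.39 in KO_PAPC. *Gdf15* gave log2 fold changes of -0.91 ± 0.0594 between KO and WT (edgeR adjusted p = 1.38e-15), -1.77 ± 0.0952 in KO_PAPC versus KO (edgeR adjusted p = 5.31e-19) and -2.69 ± 0.0807 in KO_PAPC versus WT (edgeR adjusted p = 1.70e-19). *Plk2*, a polo-like kinase, stepped down as well, from 53 CPM in WT and 35.9 in KO to 24.0 in KO_PAPC. *Sfn* (14-3-3σ), which holds cells in G2, rose in KO from a mean of 4.65 to 8.73 CPM (log2 fold change 0.91 ± 0.0907), but 14.6% of its 51-base words occur in other genes, so the level is uncertain. *Ptprv*, a phosphatase-like gene, went from 9.75 CPM in KO to 2.15 in KO_PAPC (log2 fold change -2.18 ± 0.112).

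Of the repair and nucleotide supply genes, *Pcna*, the sliding clamp of DNA replication, was the one called higher in KO_PAPC than in WT, going from 147 CPM in WT and 151 in KO to 226 (log2 fold change 0.62 ± 0.0291 against WT, edgeR adjusted p = 1.54e-15). It is also a general gene of DNA replication, and 18.9% of its words are shared with the pseudogene *Pcna-ps2*. *Polk*, a translesion polymerase, fell from 34.6 CPM in WT to 23.3 in KO_PAPC. *Rrm2b*, a subunit of ribonucleotide reductase, fell from 9.52 CPM in KO to 5.87 in KO_PAPC, with 10.6% of its words shared. In KO versus WT the translesion polymerase gene *Polh* fell from 16.4 to 10.8 CPM and the nucleotide excision repair gene *Ddb2* from 17.4 to 11.5, where *Ddb2* shares 17.7% of its words with its neighbour *Acp2*.

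Of the metabolic targets, *Ephx1*, an epoxide hydrolase, and *Dcxr*, a xylulose reductase, fell most in KO_PAPC. *Ephx1* had means of 11.4, 17.9 and 3.76 CPM in WT, KO and KO_PAPC, with a log2 fold change of -2.25 ± 0.0849 against KO. *Dcxr* stepped down from 33.6 to 22.1 and 14.3 CPM. *Cpt1c*, a member of the carnitine palmitoyltransferase family, was lower in KO than in WT, at 57.8 against 93.6 CPM (log2 fold change -0.70 ± 0.0340, edgeR adjusted p = 5.86e-19).

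Among the regulators, *Cdkn2a* changed most of those with a mean of 5 CPM or more. This gene encodes both p19Arf, which blocks Mdm2, and p16Ink4a, a kinase inhibitor, and gene counts do not separate the 2 products. Its libraries held 16.3, 18.9 and 16.8 CPM in WT, 30.9, 29.8 and 30.6 in KO, and 1.75, 1.74 and 1.99 in KO_PAPC. KO was thus high and KO_PAPC near the floor, with 44 to 51 counts per library. *Cdkn2a* gave log2 fold changes of 0.81 ± 0.0538 between KO and WT (edgeR adjusted p = 2.53e-15), -4.06 ± 0.0866 in KO_PAPC versus KO (edgeR adjusted p = 1.78e-31) and -3.25 ± 0.105 in KO_PAPC versus WT (edgeR adjusted p = 7.87e-19). *Hipk2*, a kinase of p53, was at 12.9 CPM in WT and 22 in KO (log2 fold change 0.76 ± 0.0564). *Rpl11*, a ribosomal protein that binds Mdm2, rose from 16.2 CPM in KO to 31.1 in KO_PAPC (log2 fold change 0.94 ± 0.0544), but its level is uncertain, since other genes hold 17.7% of its words.

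Genes whose levels ran most like those of 3 of the members were sought by Pearson's r of log2(CPM + 0.5) over the 9 libraries, among 9777 genes. The 9 libraries form 3 tight groups, so a high r reflects 3 group means, and it is given as a description. Many genes reached an r of 0.95 or more: 662 for *Mdm2*, 350 for *Cdkn1a* and 70 for *Trp53*. *Mdm2* was closest to *Nxt2* (r = 0.9995), *Eda2r* (0.9988) and *Ulbp1* (0.9987). On library totals these were ranked 1, 2 and 4. *Eda2r* is itself on the list of p53 targets, and *Ulbp1* had means of 17.2, 20.3 and 8.45 CPM in WT, KO and KO_PAPC. *Cdkn1a* was closest to *Srgn* (0.9983), *Gpr107* (0.9981) and *Nupr1* (0.9973), ranked 3, 1 and 26 on library totals. For *Trp53* the closest were *Tspan15* (0.9909), *Map1lc3a* (0.9810) and *Pcgf2* (0.9788), but on library totals these ranked 449, 181 and 160, so that the likeness to *Trp53* depends on the scale.

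Markers of the cell types that EBs can hold moved with the groups. In bulk samples, fewer cells of a type and less RNA per cell cannot be told apart. The summed level of 5 markers of pluripotent cells (*Pou5f1*, *Sox2*, *Nanog*, *Zfp42* and *Esrrb*) was 2044 to 2067 CPM in WT, 3071 to 3094 in KO and 2075 to 2109 in KO_PAPC, highest in KO as for *Trp53*, *Mdm2*, *Zmat3* and *Trp53inp1*. Its members did not move as one: between KO and WT 4 were called higher and none lower, from KO to KO_PAPC 1 rose and 4 fell, and KO_PAPC against WT gave 2 that were higher and 3 that were lower. *Pou5f1* had its highest mean in KO_PAPC, at 913 CPM, against 658 for WT and 670 for KO. That of 6 markers of primitive and visceral endoderm (*Gata4*, *Gata6*, *Sox17*, *Sox7*, *Dab2* and *Foxa2*) was 203 to 211 CPM in WT, 128 to 135 in KO and 21.8 to 22.4 in KO_PAPC, and all 6 were called lower in each contrast, the order also taken by *Cdkn1a*, *Ccng1*, *Bbc3* and *Phlda3*. Fibroblast markers (6) summed to 8.35 to 8.80 CPM in WT, 15.5 to 17.1 in KO and 12.1 to 13.8 in KO_PAPC, and *Lum* was at 0 counts in all KO libraries. The level in KO came mostly from *Thy1*, at 4.21 CPM in WT and 11.1 in KO, while *Col1a2* was at 2.26 and 1.71 CPM, and of 3 fibroblast markers tested 2 were called higher and 1 lower. Blood markers (4) summed to 6.44 to 7.89, 10.0 to 11.4 and 3.38 to 3.72 CPM, nearly all of it *Cd34* (6.51, 9.97 and 3.30 CPM). *Hbb-bh1* was at 0 counts in every library and *Ptprc* in every WT and KO_PAPC library. The part of these cell types in the levels of the p53 genes was not tested.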

How the data were processed

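Processing notes follow the submitters' labels and the study's methods. RNA was sequenced as unstranded single-end reads from 3 libraries each of WT, KO and KO_PAPC EBs. The authors deposited raw counts per Ensembl gene, whole numbers that were not normalized. The submitters' processing notes name bcl2fastq 2.20.0.422, STAR 2.7.2b, featureCounts 1.6.5 and GRCm38 for all libraries, whereas the study's methods name another aligner for a WT and KO analysis. Multi-mapping reads, and reads shared by overlapping genes, were left out of the counts, which lowers genes with close copies. The number of per-sample columns left unused was 0.

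Symbols, positions and exon lengths were joined from GENCODE M21 of the same build, and 327 of 55471 IDs had no match. Groups and replicate numbers were taken from the titles. Each contrast was fitted on its own 6 libraries with edgeR 4.0.16 in R 4.3.3 (TMM, filterByExpr, glmQLFit and glmQLFTest, no covariates, Benjamini-Hochberg over all genes), after the fit had been tested on simulated data. SE was taken from the F statistic. Printed CPM used TMM factors over all 9 libraries, and TPM used exon length. Alternatives were DESeq2 1.42.0, RLE factors, library totals, other filters, a joint fit, a replicate block, each replicate left out and a tested minimum fold change of 1.5. Replicate pairs differed by more than sampling noise (chi-square per degree of freedom 1.22 to 3.451). Other pathway genes were named by a rule: for each role and contrast the 2 largest changes that were called, at a mean over the 6 libraries of no less than 5 CPM. Similar genes were the 3 with the highest r from 10 CPM upward. The 9 genes, the lists and the rule were chosen with earlier results of these data known.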

Additional observations from a re-analysis of the deposited data

How the results depend on the processing

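Over all alternatives tried, 349 of 378 fold changes of the 9 genes kept their direction and their side of the threshold, 22 lost the call, 1 gained it and 6 turned sign. The 6 that turned were those of *Bax* and *Trp53* in KO_PAPC. For *Bax* in KO_PAPC versus KO the log2 fold change was 0.0125 with a filter of 1 count only, 0.0116 without KO replicate 1 and 0.0135 without KO_PAPC replicate 1, and with 1 replicate left out it ran from -0.0318 to 0.0135. For *Bax* in KO_PAPC versus WT it was -0.099 on library totals. For *Trp53* in KO_PAPC versus WT it was -0.137 on library totals and -0.00454 without WT replicate 1, and with 1 replicate left out it ran from -0.00454 to 0.0616. The call of *Bax* in KO_PAPC versus WT was lost with a mean of at least 10 counts (edgeR adjusted p = 0.0608), and without KO_PAPC replicate 2 (0.162), KO_PAPC replicate 3 (0.111), WT replicate 1 (0.203) or WT replicate 2 (0.0759). With a tested minimum fold change of 1.5, 3637, 6491 and 2953 genes were called (in the order KO against WT, KO_PAPC against KO, KO_PAPC against WT), of the 9 genes 0, 5 and 5, and of the pathway genes 9, 17 and 14. A higher bar calls fewer genes by construction. With DESeq2, 9, 8 and 8 of the 9 genes were called. Leaving out each replicate in turn gave 12382 to 12820, 13785 to 14137 and 11208 to 11654 called genes, 8 to 9, 8 and 7 to 8 of the 9 genes, and 46 to 47, 47 to 49 and 41 to 45 of the pathway genes. Replicate numbers are shared between groups, and correlations of the deviations of libraries with one number ran from -0.236 to 0.317. They were negative in every pair with KO, but 0.317, 0.21 and -0.00771 for KO_PAPC and WT in replicates 1, 2 and 3. A shared effect of the replicate number between KO_PAPC and WT is therefore not excluded. With the replicate block, 12587, 13822 and 12223 genes, 9, 8 and 8 of the 9 genes, and 47, 47 and 46 pathway genes were called. Depth limits only genes near the floor, such as *Tnfaip2*, *Sco2* and *Trp63*, as the 9 genes had 864 counts or more.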

Other observations

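Some pathway genes outside the rule for naming, chosen after their values were seen, are given as values. Each of them had its lowest mean in KO_PAPC, so they do not stand for the whole list. Of its 57 tested genes, 15 were called with a rise from KO to KO_PAPC and 33 with a fall. Genes with a rise that are not described elsewhere include *Cop1*, *Kat5* and *Chek1*, with log2 fold changes of 0.905 ± 0.0574, 0.684 ± 0.0451 and 0.657 ± 0.0339. *Trp63*, of the p53 family, had 27 to 36 counts in WT, 36 to 46 in KO and 1 to 5 in KO_PAPC libraries, with a log2 fold change of -3.32 ± 0.393 in KO_PAPC versus WT (edgeR adjusted p = 4.87e-08), and at these counts the size is uncertain. *Trp73*, the other family member, had means of 12.4, 9.40 and 8.76 CPM in WT, KO and KO_PAPC. *Mdm4*, the partner of Mdm2 that binds p53, stepped down without overlap from 279, 267 and 273 CPM in WT to 227, 228 and 231 in KO and 171, 163 and 174 in KO_PAPC (log2 fold change -0.70 ± 0.0313 in KO_PAPC versus WT, edgeR adjusted p = 5.68e-16). *Sesn2*, a sestrin that restrains mTORC1, took the same order with means of 222, 177 and 122 CPM, as did the antiproliferative gene *Btg2* with 84.5, 68.9 and 47.4 CPM. *Gadd45a*, a stress gene of arrest and repair, rose in KO instead, from 115 to 183 CPM, and was at 78.5 CPM in KO_PAPC (log2 fold change -1.23 ± 0.0314 against KO, edgeR adjusted p = 5.67e-29).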
